A study of Ciona savignyi with 56 samples.

Results

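B4.1 is the pair of posterior vegetal blastomeres of the ascidian embryo at the 8-cell stage. The deposited cell table gives the class B4.1 to 6 of the 24 cells of the 8-cell stage, 2 in each of 3 embryos, out of 773 cells in the series. The 18 other cells, 6 in each embryo, carry 1 class, C8-animal. That class holds every other blastomere of the embryo, and so more than the animal cells its name refers to. B4.1 was set against C8-animal within each embryo, after adding up the counts of its cells by class. The rule used no measured value of this work. How the authors assigned the classes is not given in the sources used here, so use of these genes in the labels and the contrast itself cannot be told apart.

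All embryos described here were untreated Ciona savignyi embryos, raised per the labels from animals collected in the wild and stripped of their chorions. B4.1 and C8-animal came from 8-cell embryos 1, 2 and 3. The lineage of B4.1 was followed in other embryos: B against A in 3 embryos of 4 cells, B5.2 and B5.1 against the other classes in 2 embryos of 16 cells, and the B6 classes in 2 embryos of 32 cells. Zygotes were 8 embryos of 1 cell. Each embryo was dissociated with trypsin and every cell was picked by hand. Polyadenylated RNA was amplified by a modified Smart-seq2 protocol with 14 PCR cycles at the 8-cell stage, and equal amounts of cDNA per cell were pooled. A cell's counts are therefore shares of its cDNA, and RNA per cell cannot be read from them. Embryos 1 and 2 were in 1 sequencing library of 16 cells and embryo 3 was in another of 8 cells, so library and embryo 3 cannot be told apart. The libraries share 8 barcode numbers, and the labels give no parents for the embryos.

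Ascidian embryos cleave by a fixed lineage in which each blastomere has a name and a known fate. The posterior vegetal blastomeres inherit the myoplasm, a cytoplasm rich in mitochondria that is known for its maternal muscle determinants. They also inherit the posterior pole, where a set of maternal RNAs known as postplasmic or PEM RNAs is anchored in a structure that is passed at each unequal division to the most posterior daughter. In the lineage of B4.1, B5.1 leads to endoderm, mesenchyme and muscle, among others. B5.2 leads, beside muscle and other fates, through B6.3 to B7.6, the germline precursor. The files pair no identifier with a gene name and no annotation was used, so genes are given by identifier and no function is assigned to them.

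Depth moved with the class. B4.1 cells held 520400, 524700 and 341600 reads on average in embryos 1, 2 and 3, against 252700, 264500 and 224500 in C8-animal cells. UMIs per cell, which count tagged molecules in the cell table, were 140100 ± 20920 in B4.1 and 82040 ± 2006 in C8-animal (SD, n = 3 embryos; higher in 3 of 3, exact two-sided sign-flip permutation p 0.25, the smallest that 3 embryos allow). Single cells ranged between 74412 and 589121 reads. Since cells entered the pools with equal cDNA per the labels, what set this difference was not tested. After every cell had been thinned to 50000 counts, B4.1 showed 5436 ± 119 genes per cell and C8-animal 5593 ± 149 (difference -157 ± 44.0, lower in 3 of 3 embryos, exact sign-flip permutation p 0.25). In embryo 3 the 6 C8-animal cells all had more genes at that depth than the lower B4.1 cell, and in each of embryos 1 and 2 it was 5 of 6.

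B4.1 stood apart by few genes, and those that were higher fell into 2 kinds. Of 6367 genes tested by edgeR's quasi-likelihood test with the embryo as a block, 52 were higher in B4.1, which is 0.817% of all tested, and 18 were lower, which is 0.283% (Benjamini-Hochberg adjusted p under 0.05). Of the 52 genes, 25 carry neighbouring identifiers, called the run below, and had like fold changes, between 2.18- and 3.92-fold. The other 27 have identifiers outside the run, with a median log2 fold change of 0.99, and they include the 7 largest contrasts. The sums of B4.1 were above those of C8-animal without overlap for 49 of the 52 genes, against 4.96% of all tested genes, and in every embryo B4.1 was the higher class for all 52. The test took the spread as fully shared among genes, with no weight on a gene's own spread, so its small p-values rest on that shared spread. A common coefficient of variation, estimated over genes before the test, was 0.144. It is not the spread behind the SE of each gene. The split between higher and lower genes depended on scaling. Without scaling factors the median log2 over all tested genes was -0.295, against -0.0055 with TMM, the trimmed mean of M-values, and 41 genes were higher and 756 lower. Limma-trend on cells scaled to the same total, also without TMM, gave 38 higher and 860 lower.

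**Figure D1:**
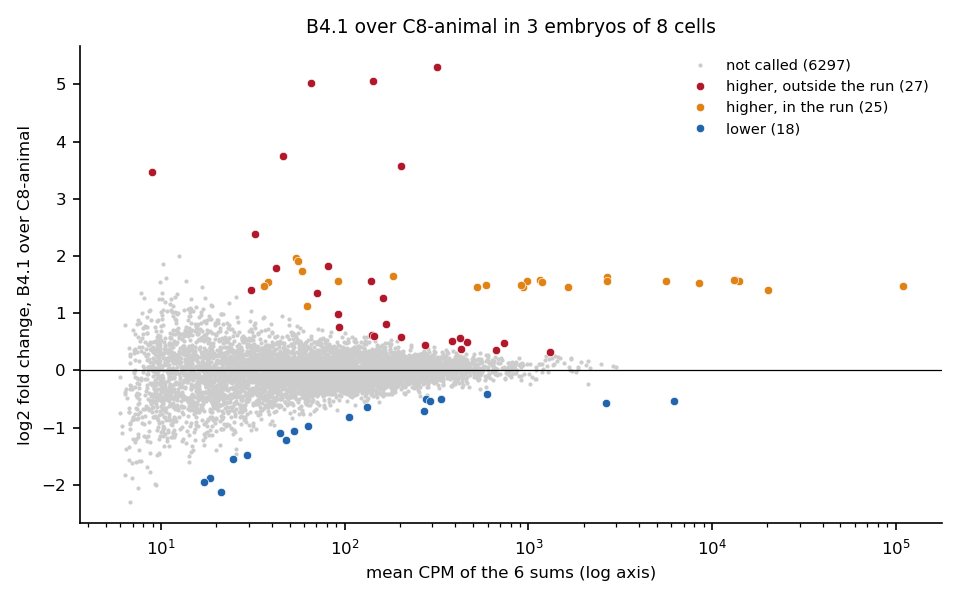
Log2 fold change of B4.1 over C8-animal (vertical axis) against the mean level of the 6 sums (horizontal axis, log scale, in CPM, counts scaled to the same total in every sum), with 1 point per tested gene. The 25 genes of the run form a flat band near the median of 1.56 at every level, while the 27 other higher genes reach 5.30 and the 18 lower genes reach -2.12.

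The largest contrasts belonged to a few genes that lay mostly in the B4.1 pair. ENSCSAVG00000003019, the marker of the pair, stood at 585, 597 and 683 CPM in the B4.1 sums of embryos 1, 2 and 3, against 19.8, 20.98 and 5.34 CPM in the C8-animal sums. The groups did not overlap, and B4.1 was higher by a log2 fold change of 5.30 (SE 0.16, edgeR adjusted p 3.22e-217). Of the summed CPM of the 8 cells of an embryo, the pair held 92.9 ± 3.61% (SD, n = 3), where an even spread over the cells would give 25%.

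ENSCSAVG00000001907 stood at 319, 261 and 249 CPM in B4.1, against 13.8, 6.41 and 4.68 CPM in C8-animal. Each B4.1 sum was far above each C8-animal sum (log2 5.05, SE 0.24, edgeR adjusted p 1.98e-97), and the pair held 90.5 ± 2.63% of this gene. ENSCSAVG00000010230 was at 128, 129 and 124 CPM in B4.1, against 3.597, 5.83 and 2.00 CPM in C8-animal. Its level in B4.1 hardly varied between embryos (log2 5.01, SE 0.35, edgeR adjusted p 2.30e-44). ENSCSAVG00000007674 was at 80.0, 90.2 and 88.4 CPM in B4.1 and at 8.39, 5.24 and 5.34 CPM in C8-animal. Again the groups lay apart, with a log2 fold change of 3.75 (SE 0.36, edgeR adjusted p 1.09e-22). ENSCSAVG00000007478 was at 347, 444 and 326 CPM in B4.1 and at 34.8, 28.5 and 30.1 CPM in C8-animal. It was the gene of these 5 with the highest level outside the pair, and its log2 fold change was 3.57 (SE 0.17, edgeR adjusted p 1.15e-91). The pair held 89.95 ± 4.23% of ENSCSAVG00000010230, 79.7 ± 5.35% of ENSCSAVG00000007674 and 76.4 ± 4.73% of ENSCSAVG00000007478.

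In single cells the gap between the classes was wide in embryo 3 and narrower in embryos 1 and 2. For ENSCSAVG00000003019, both B4.1 cells were above all 6 other cells in each of the 3 embryos: the lower B4.1 cell held 114, 90.0 and 585 CPM in embryos 1, 2 and 3, and the highest C8-animal cell 39.5, 64.1 and 16.8 CPM. In embryo 2 the 95% counting intervals of these cells overlapped, at 67.4 to 117.7 CPM in B4.1 and 40.2 to 97.1 CPM in C8-animal. C8-animal cells without a read of this gene numbered 1, 1 and 2 in the 3 embryos, and a count of 0 allows up to 3 reads. That was 40.3 CPM in the cell of embryo 1, 28.3 CPM in the cell of embryo 2, and 19.1 and 10.2 CPM in the cells of embryo 3. The first of these is above the 39.5 CPM of the highest C8-animal cell of embryo 1, and below both of its B4.1 cells. Both B4.1 cells exceeded all others in all 3 embryos for 26 of the tested genes, or 0.408%. Of these, 22 were in the run and 4 outside it: ENSCSAVG00000003019, ENSCSAVG00000007478, ENSCSAVG00000007674 and ENSCSAVG00000010230. ENSCSAVG00000001907 missed by 1 C8-animal cell of embryo 2, which held 37.8 CPM while the lower B4.1 cell held 35.7 CPM.

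**Figure D2:**
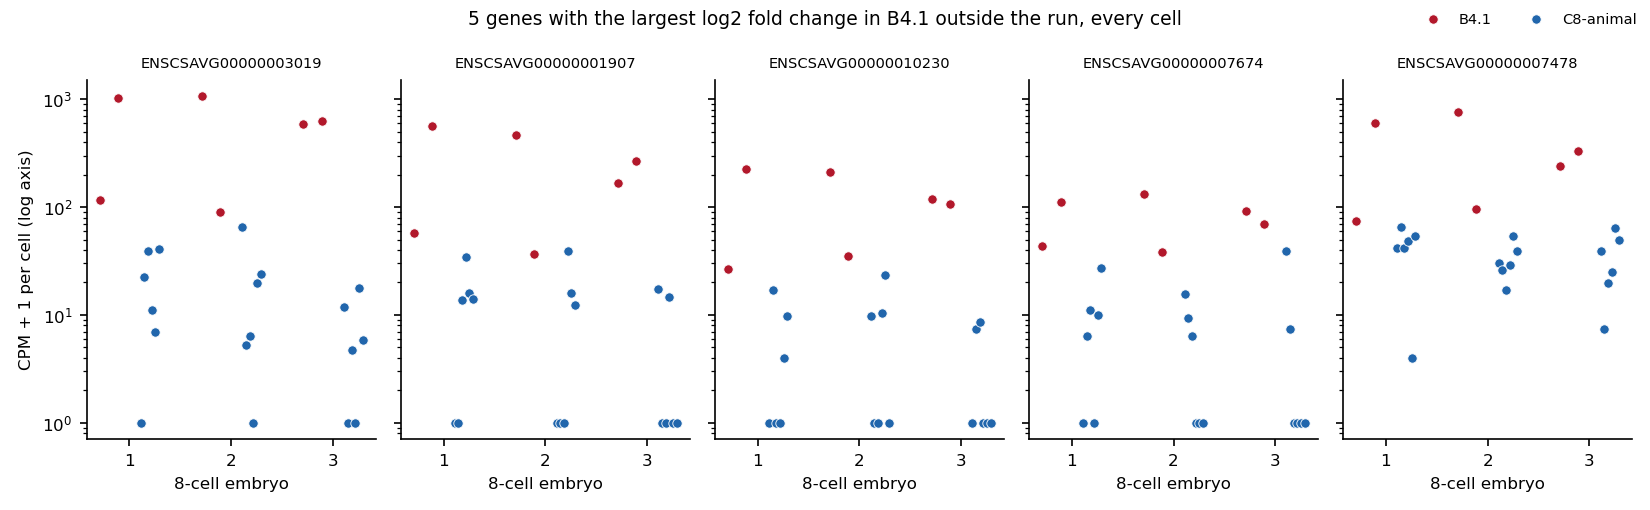
CPM + 1 in every cell (vertical axis, log scale) by embryo (horizontal axis) for the 5 genes outside the run with the largest log2 fold change, with B4.1 cells in red and C8-animal cells in blue. In embryos 1 and 2 the B4.1 cells lie far apart, as for ENSCSAVG00000003019 with 1020 and 114 CPM in embryo 1, while in embryo 3 they lie close together at 630 and 585 CPM.

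The 2 cells of a pair did not share these transcripts evenly in 2 of the 3 embryos. ENSCSAVG00000003019 was at 1020 and 114 CPM in the B4.1 cells of embryo 1, at 1064 and 90.0 CPM in those of embryo 2, and at 630 and 585 CPM in those of embryo 3. The cell with more of the marker held 89.9% of the pair's CPM in embryo 1, 92.2% in embryo 2 and 51.8% in embryo 3. The mean of the pair was nearly the same in all embryos, at 567, 577 and 607 CPM, so the embryos differed in how the level was divided and not in its sum.

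The same cell was rich in other genes. For ENSCSAVG00000001907, the cell with more of the marker held 90.8%, 92.9% and 61.4% of the pair's CPM in embryos 1, 2 and 3. For ENSCSAVG00000010230 it held 89.6%, 86.1% and 47.0%. The means of the pair were 310, 252 and 216 CPM for the first gene and 124, 122 and 112 CPM for the second, so their sums also varied less than their division. ENSCSAVG00000007478 was divided with 89.0%, 88.8% and 57.7% in that cell, and ENSCSAVG00000007674 with 72.3%, 77.7% and 43.0%. In embryo 3 the divisions lay between 35.9% and 61.4% over the 8 genes with an uneven pair, with no common direction.

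Beside the marker, 7 of the 26 higher genes outside the run were more than 2-fold toward the marker-rich cell in both embryos 1 and 2, on log2 CPM with a pseudocount of 10, whereas 0.303% of 5286 genes with a mean of at least 20 CPM were. They are ENSCSAVG00000001907, ENSCSAVG00000010230, ENSCSAVG00000007674, ENSCSAVG00000007478, ENSCSAVG00000010093, ENSCSAVG00000004348 and ENSCSAVG00000000557. None of the 25 higher genes of the run did so in both embryos. Their median log2 ratio between the cells was 0.27, 0.19 and 0.06 in embryos 1, 2 and 3, with 1 gene above 1 in embryo 1 and 1 below -1 in embryo 3. These values describe 3 pairs of cells and carry no test, and the list was drawn up after the values had been seen. Depth did not go with the marker: the marker-rich cell had 498041 reads and the other 542706 in embryo 1, 460318 and 589121 in embryo 2, and 389130 and 294043 in embryo 3. Embryos 1 and 2 share a library, and what part the library had in the uneven pairs was not tested.

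**Figure D3:**
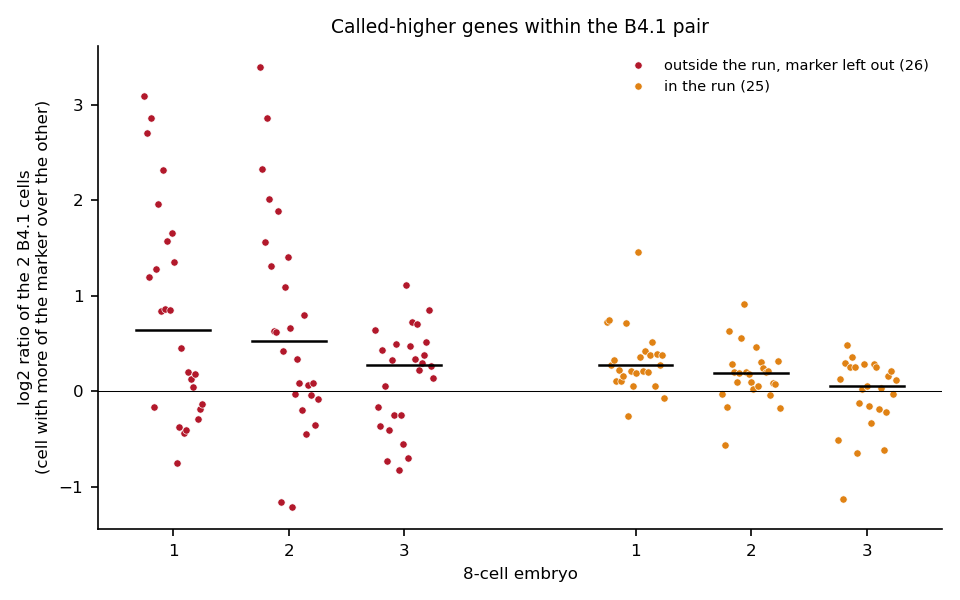
Log2 ratio of CPM (pseudocount 10) between the B4.1 cells of an embryo, marker-rich cell over the other (vertical axis), by embryo (horizontal axis) for the 26 higher genes outside the run other than the marker (red) and the 25 in the run (orange), with medians as black lines. In embryos 1 and 2 several genes outside the run rise above 2 on the log2 scale, while the medians of the run are 0.27, 0.19 and 0.06, with 1 of its genes above 1 in embryo 1 and 1 below -1 in embryo 3.

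Pairs were uneven at other stages too, in other embryos, and which genes were uneven varied. The columns of the 4-cell stage hold UMIs and those of the 8- and 16-cell stages hold reads, so the folds between the cells of a pair are set side by side only. For ENSCSAVG00000003019, the higher of the B cells exceeded the lower by 1.37-, 1.23- and 2.70-fold in the 3 embryos of 4 cells, and the higher of the B5.2 cells by 1.59- and 1.01-fold in the 2 embryos of 16 cells, beside 8.93-, 11.8- and 1.08-fold between the B4.1 cells. For ENSCSAVG00000001907 the folds were 1.05, 1.77 and 5.12 at 4 cells and 1.05 and 1.27 at 16 cells, beside 9.84, 13.2 and 1.59 in B4.1. The widest B pairs at 4 cells were those of ENSCSAVG00000007674, at 9.78-, 12.28- and 1.30-fold, where the B4.1 cells differed by 2.61-, 3.49- and 1.32-fold. ENSCSAVG00000010230 was divided by 1.03-, 1.15- and 8.15-fold at 4 cells and by 2.15- and 1.40-fold at 16 cells, and ENSCSAVG00000007478 by at most 1.83-fold at 4 cells and 1.58-fold at 16 cells. Some of these rest on low levels: the lower B cells of ENSCSAVG00000007674 were at 7.84 and 11.9 CPM in embryos 1 and 2. The anterior A cells were uneven for this gene too, by 4.77-, 1.05- and 3.42-fold in embryos 1, 2 and 3. Their lower cells were at 13.7, 16.8 and 10.4 CPM. The order of the stages was not tested.

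Other genes outside the run had smaller contrasts. ENSCSAVG00000010093 averaged 54.5 ± 21.6 CPM in B4.1 and 10.2 ± 2.77 CPM in C8-animal (log2 2.38, edgeR adjusted p 7.64e-07), and ENSCSAVG00000000317 averaged 127 ± 19.0 and 35.4 ± 5.83 CPM in B4.1 and C8-animal (log2 1.83, edgeR adjusted p 9.26e-12). ENSCSAVG00000011742 averaged 65.0 ± 8.06 CPM in B4.1 and 19.2 ± 7.82 CPM in C8-animal (log2 1.79). ENSCSAVG00000009054, with only 16.5 ± 2.80 CPM in B4.1 and 1.42 ± 1.37 CPM in C8-animal, had a log2 fold change of 3.47 with a wide SE of 0.77 (edgeR adjusted p 8.99e-04). For these genes the pair held 50.03% to 78.8% of the embryo's CPM. At the small end, 11 of the 27 genes had a log2 fold change under 0.70, down to 0.32 for ENSCSAVG00000009748, which averaged 1458 ± 42.4 CPM in B4.1 and 1172 ± 77.9 CPM in C8-animal. The called gene nearest the threshold was ENSCSAVG00000007794 (log2 0.37, edgeR adjusted p 0.0495), and the nearest gene beyond it was ENSCSAVG00000007095, at 239 CPM in B4.1 and 321 CPM in C8-animal (log2 -0.43, edgeR adjusted p 0.0506).

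The second kind of gene moved as a block. The run holds 42 genes whose last 5 digits lie between 12479 and 12520, a list drawn around the most abundant gene in earlier work on these data. All 28 of them that could be tested had a positive fold change and 25 passed the test. The fold changes were narrow: the 28 lay between log2 1.12 and 1.97 with a median of 1.54, against -0.0055 over all tested genes, and the quartiles of the 25 were 1.48 and 1.58. The 3 that did not pass, ENSCSAVG00000012502, ENSCSAVG00000012510 and ENSCSAVG00000012513, stood at log2 1.28, 1.26 and 1.14 at low levels.

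ENSCSAVG00000012509, the most abundant, stood at 150900, 160100 and 172000 CPM in the B4.1 sums of embryos 1, 2 and 3, against 61540, 55840 and 56020 CPM in the C8-animal sums. The groups did not overlap (log2 1.48, SE 0.07, edgeR adjusted p 3.39e-101), and the pair held 43.4 ± 0.79% of this gene. ENSCSAVG00000012488 was at 18630, 31640 and 39060 CPM in B4.1 and at 9968, 10860 and 11530 CPM in C8-animal. It varied more between embryos in B4.1 than in C8-animal, with a log2 fold change of 1.40 (SE 0.07, edgeR adjusted p 3.03e-75). ENSCSAVG00000012501 was at 15730, 27340 and 20160 CPM in B4.1 and at 5936, 8574 and 6680 CPM in C8-animal (log2 1.56, SE 0.08, edgeR adjusted p 2.64e-89). Both classes were highest in embryo 2 for this gene.

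Genes of the run with low levels had a like contrast. ENSCSAVG00000012496 averaged 86.6 ± 32.8 CPM in B4.1 and 22.2 ± 10.6 CPM in C8-animal (log2 1.97, SE 0.29), and ENSCSAVG00000012512 averaged 88.2 ± 34.5 and 22.6 ± 5.72 CPM in B4.1 and C8-animal (log2 1.91, SE 0.29). ENSCSAVG00000012518 and ENSCSAVG00000012504 had log2 fold changes of 1.73 and 1.64, and the far more abundant ENSCSAVG00000012493 and ENSCSAVG00000012507 had 1.64 and 1.58. For ENSCSAVG00000012493 the level itself moved from embryo to embryo: B4.1 held 1453, 7260 and 3660 CPM and C8-animal 576, 2159 and 1050 CPM, so its groups overlapped while B4.1 was the higher class in each embryo.

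Together the run took 22.3%, 28.8% and 27.9% of the reads of B4.1 in embryos 1, 2 and 3, against 10.8%, 12.1% and 11.1% of the reads of C8-animal (above C8-animal in all 3, with p 0.25 by an exact sign-flip permutation, again the smallest possible). No C8-animal cell exceeded a B4.1 cell of its own embryo. C8-animal cells ranged between 7.78% and 16.3% and B4.1 cells between 19.9% and 30.98%. Left out before scaling and testing, the run had little weight on the other genes: 25 genes were higher and 18 lower, and 23 of the 27 higher genes outside the run were among them.

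**Figure D4:**
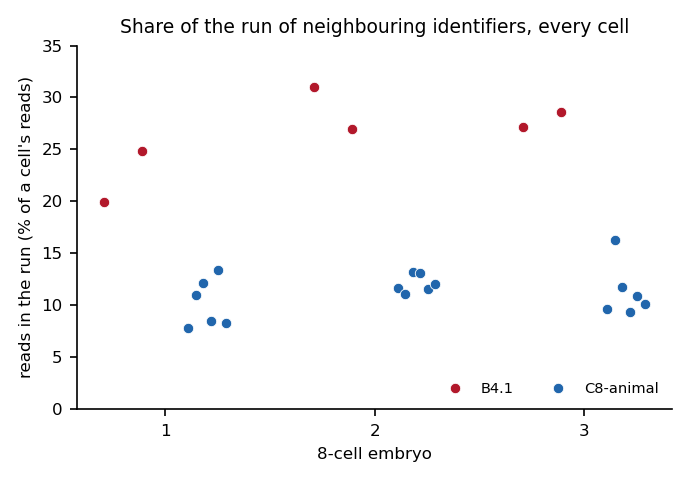
Share of a cell's reads in the 42 genes of the run (vertical axis, percent) by embryo (horizontal axis), with B4.1 cells in red and C8-animal cells in blue. Every B4.1 cell, between 19.9% and 30.98%, lies above every C8-animal cell, the highest of which has 16.3%.

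The 18 genes lower in B4.1 formed a weaker group. Their log2 fold changes lay between -0.41 and -2.12, 17 of them were lower in all 3 embryos, and the sums of 11 did not overlap, against 5.03% of all tested genes. For none of the 18 were both B4.1 cells below all other cells in every embryo, against 0.0785% of all tested genes. ENSCSAVG00000006320 was at 4.103, 6.60 and 14.7 CPM in B4.1, against 31.8, 36.7 and 33.4 CPM in C8-animal (log2 -2.12, SE 0.48, edgeR adjusted p 0.0016). The groups did not overlap, although embryo 3 came closest. In that embryo single C8-animal cells reached 95.3 and 87.0 CPM beside a median of 23.4 CPM. Of its 6 C8-animal cells, 4 were above the higher B4.1 cell, which held 17.0 CPM. ENSCSAVG00000009778 was at 5.13, 1.10 and 18.0 CPM in B4.1 and at 20.98, 22.7 and 34.1 CPM in C8-animal (log2 -1.95, SE 0.54, edgeR adjusted p 0.0334). ENSCSAVG00000000454 was at 18.5, 1.10 and 6.55 CPM in B4.1 and at 33.6, 23.3 and 28.1 CPM in C8-animal (log2 -1.87, SE 0.51, edgeR adjusted p 0.0271). The sums of these genes were low in both classes, and embryo 1 or embryo 3 was the closest for each.

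ENSCSAVG00000010616 averaged 15.0 ± 2.24 CPM in B4.1 and 43.4 ± 15.9 CPM in C8-animal (log2 -1.47). For this gene a C8-animal cell of embryo 2 reached 230 CPM beside a median of 17.5 CPM. Another of embryo 3 reached 207 CPM beside a median of 24.6 CPM. ENSCSAVG00000006212 averaged 12.6 ± 5.30 CPM in B4.1 and 36.6 ± 9.73 CPM in C8-animal (log2 -1.55), and ENSCSAVG00000001781 averaged 30.9 ± 21.7 and 64.4 ± 6.49 CPM in B4.1 and C8-animal (log2 -1.21). ENSCSAVG00000008045, ENSCSAVG00000010711, ENSCSAVG00000007748 and ENSCSAVG00000008327 had log2 fold changes of -1.09, -1.05, -0.96 and -0.81. All 18 calls depended on the block: without the embryo term 0 genes were lower, with 285 genes of either direction at an unadjusted p under 0.05. DESeq2 called 1 of the 18, ENSCSAVG00000008526. Without embryo 1 there were 10 lower genes, of which 7 were among the 18. Without embryo 2 there were 5, all among the 18, and without embryo 3 there were 14, of which 10 were.

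Other embryos gave the genes a second look, since none of the embryos of the 4-, 16- and 32-cell stages entered the contrast that chose them. How the authors assigned the classes of these and later stages is not given either. Use of these genes in those labels and the contrasts themselves cannot be told apart. At the 4-cell stage, whose columns hold UMIs, B, the posterior pair, was above A, the anterior pair, in 15 of 3930 genes (0.382%), and 14 of these were among the 52, which is 93.3% of the 4-cell list and 26.9% of the 8-cell list. Of the 52 genes, 35 could be tested at 4 cells and 30 were positive, with a median log2 of 0.63 against -0.0020 over all genes. ENSCSAVG00000003019 was higher in B by a log2 fold change of 2.68 (SE 0.26), ENSCSAVG00000001907 by 4.27 (SE 0.51), ENSCSAVG00000010230 by 2.84 (SE 0.44) and ENSCSAVG00000007478 by 2.31 (SE 0.47). The other 10 were in the run, where all 16 tested genes were positive with a median of 0.75. The gene called in B alone, ENSCSAVG00000008691, was at 238, 270 and 334 CPM in B4.1 and at 239, 263 and 293 CPM in C8-animal (log2 0.07, edgeR adjusted p 0.944). Of the 18 lower genes, 12 were tested at 4 cells and 0 passed, as did 0% of all tested genes in that direction. Of the 12, 4 were positive, where 49.8% of all tested genes were. Without embryo 3 of this stage, 8 genes were higher in B.

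The daughters of B4.1 at the 16-cell stage differed in 11 of the higher genes, all of them outside the run. The mean of B5.2 and B5.1 was above that of the other classes in 31 of 6675 genes (0.464%) and below it in 1 (0.015%). Among the higher ones were 26 of the 51 tested genes of the 52, 18 in the run and 8 outside it. Between the daughters, 17 genes were higher in B5.2 than in B5.1 (0.255%) and 11 of them were among the 52. Of the 26 tested genes outside the run, 15 did not pass, and 0 of the 25 genes of the run passed. The median log2 of B5.2 over B5.1 was 0.91 for the 26 tested genes outside the run, 0.15 for the run and -0.05 over all genes. The difference between the medians of both kinds was not tested.

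ENSCSAVG00000003019 averaged 1499 ± 48.7 CPM in B5.2 and 20.0 ± 10.6 CPM in B5.1 (n = 2 embryos), a level in B5.1 like the 23.5 ± 1.77 CPM of the animal class (log2 B5.2 over B5.1 6.38, SE 0.42, edgeR adjusted p 1.82e-13). ENSCSAVG00000001907 averaged 773 ± 101 CPM in B5.2 and 8.61 ± 2.38 CPM in B5.1 (log2 6.49, SE 0.52), and ENSCSAVG00000007478 averaged 839 ± 183 and 34.1 ± 14.9 CPM in B5.2 and B5.1 (log2 4.71, SE 0.37). ENSCSAVG00000007674 was at 210 ± 55.7 CPM in B5.2 and 3.43 ± 4.86 CPM in B5.1, and ENSCSAVG00000010230 at 286 ± 18.1 CPM in B5.2 and 5.54 ± 7.84 CPM in B5.1. Of the genes with a smaller contrast at 8 cells, ENSCSAVG00000011742, ENSCSAVG00000007158, ENSCSAVG00000004348, ENSCSAVG00000000317, ENSCSAVG00000007156 and ENSCSAVG00000001462 were also higher in B5.2, by log2 2.60, 2.32, 2.23, 2.04, 1.54 and 1.23. ENSCSAVG00000012509 by contrast averaged 185600 ± 12480 CPM in B5.2 and 187600 ± 16840 CPM in B5.1, both above the 73020 ± 33950 CPM of A5.1/2 and the 54060 ± 2759 CPM of the animal class.

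Lower genes gave a different picture in the daughters. Of the 18, 3 were lower in B5.2 than in B5.1 (20 of 6675 genes, 0.3%): ENSCSAVG00000012126, ENSCSAVG00000011890 and ENSCSAVG00000012450. The last 2 were higher in the B5 classes than in the others at 16 cells, by log2 0.75 and 0.77, against log2 -0.53 and -0.57 in B4.1 at 8 cells. ENSCSAVG00000011890 averaged 10570 ± 1531 CPM in B5.2 and 31290 ± 15860 CPM in B5.1. At 8 cells its B4.1 sums were 2592, 4124 and 9740 CPM and its C8-animal sums 5743, 6586 and 8390 CPM, so in embryo 3 it was higher in B4.1, and the spread between embryos was wider than the contrast.

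**Figure D5:**
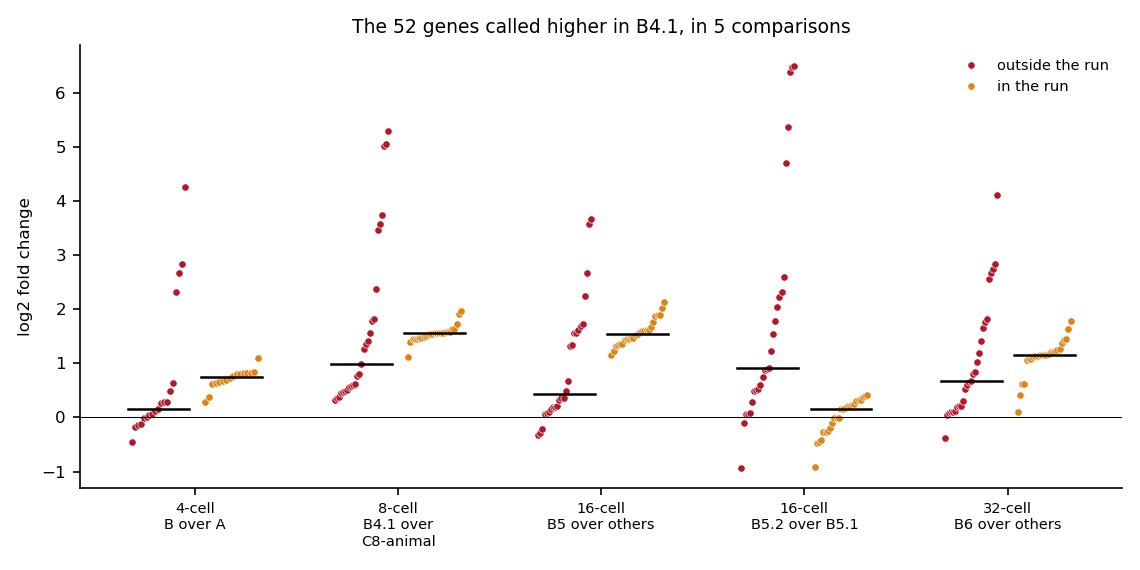
Log2 fold change (vertical axis) of the 52 genes called higher in B4.1, in 5 comparisons from the 4-cell to the 32-cell stage (horizontal axis), with genes outside the run in red, genes in the run in orange and medians as black lines. The 8-cell values chose the genes, while the other comparisons used other embryos, with class labels whose basis is not given. In B5.2 over B5.1 the run has a median of 0.15 and 5 genes outside the run exceed 4.

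At the 32-cell stage the mean of the B6 classes was above that of the others in 36 of 6971 genes (0.516%), of which 31 were among the 52, 19 in the run and 12 outside it. It was below in 15 genes (0.215%), and 0 of the 18 genes lower in B4.1 passed in either direction. The 5 genes with the largest contrast at 8 cells were by then in B6.3: ENSCSAVG00000003019 averaged 4571 ± 348 CPM in B6.3 and 59.6 ± 18.6 CPM in B6.4 (n = 2 embryos), and ENSCSAVG00000001907 averaged 2430 ± 323 CPM in B6.3 and 20.9 ± 23.1 CPM in B6.4. ENSCSAVG00000007478 was at 2149 ± 172 CPM in B6.3, ENSCSAVG00000010230 at 1384 ± 356 CPM and ENSCSAVG00000007674 at 893 ± 21.05 CPM. Each of the 5 was highest in B6.3 of the 7 classes. ENSCSAVG00000012509 averaged 220000 ± 14220 CPM in B6.3, 197700 ± 15170 CPM in B6.2 and 128200 ± 1291 CPM in B6.4, against 23720 ± 2558 CPM in B6.1, so it stayed high in 3 of the 4 B6 classes. The anterior class A6.2/4 came next, ranked 4 of 7, with 89600 ± 17680 CPM.

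In the later stages the columns again hold UMIs, and levels cannot be set beside reads. At 64 cells, the 5 genes with the largest contrast were highest in B7.6 of 14 classes in each of the 2 embryos with that class. ENSCSAVG00000003019 was at 3400 and 19610 CPM in B7.6, and at most 257 CPM in the mean of any other class. At 110 cells all 5 had their highest mean of 16 classes in B7.6, but 3 of them were not highest there in every embryo. ENSCSAVG00000003019 was at 690, 5138 and 28610 CPM in B7.6 of the 3 embryos and ENSCSAVG00000001907 at 379, 1150 and 6717 CPM, and both were highest in B7.6 in each embryo. ENSCSAVG00000010230 was at 176, 613 and 6053 CPM and was highest there in embryos 2 and 3 but ranked 6 in embryo 1. ENSCSAVG00000007674 was at 433, 368 and 2488 CPM, and without embryo 3 its mean of 400.2 CPM was below the 493.1 CPM of anterior epidermis. ENSCSAVG00000007478 was at 40.6, 452.5 and 3234 CPM, and without embryo 3 its mean of 246.5 CPM was below the 369 CPM of A8.5/6/13/14.

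ENSCSAVG00000012509 had no steady place in B7.6. At 64 cells it ranked 12 of 14 in B7.6 with 26290 ± 2347 CPM, and its highest classes were B7.8 and B7.4 at 127500 ± 77630 and 116600 ± 46650 CPM, both of which lead to muscle. An anterior class, A7.4/8, ranked 3 with 88180 ± 55960 CPM, within the spread of both. At 110 cells it ranked 4 of 16 in B7.6 with 75440 ± 61900 CPM, at 134800, 80240 and 11280 CPM in the 3 embryos, so embryo 3 was lowest for this gene where it was highest for the other 5.

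Most of these genes were detected in the zygote, like most tested genes. Of the 52 higher genes, 50 had reads in 8 of 8 zygotes, and of the 18 lower genes 17 did, where 86.3% of all 6367 tested genes did. Among zygotes, ENSCSAVG00000003019 had 161 CPM in the lowest, a median of 221 and 337 in the highest, so all lay below the B4.1 sums and above the C8-animal sums. Here and below, levels of zygotes are CPM of their own total, while the sums and means of the classes are TMM-scaled. ENSCSAVG00000001907 had a lowest, median and highest level of 60.5, 70.2 and 94.9 CPM, and ENSCSAVG00000007478 of 78.3, 112 and 160 CPM. ENSCSAVG00000012509 had 112600, 150000 and 175300 CPM. Whole embryos of 8 cells were sums of reads, so the deeper B4.1 cells weighed more in them than C8-animal cells. The pair gave 1040747, 1049439 and 683173 reads in embryos 1, 2 and 3, and the C8-animal cells 1515996, 1587122 and 1346923. What this did to the fold changes against zygotes was not tested. Set against zygotes, whole embryos of 8 cells had a log2 fold change of -0.32 for ENSCSAVG00000003019 (edgeR adjusted p 0.194), 0.24 for ENSCSAVG00000001907 (adjusted p 0.388) and 0.25 for ENSCSAVG00000007478 (adjusted p 0.335), and none of the 3 passed the test. ENSCSAVG00000012509 was lower in embryos of 8 cells (log2 -0.81, SE 0.16, edgeR adjusted p 3.16e-04). Zygotes were in a library of their own with fewer PCR cycles, so stage, library and amplification cannot be told apart in this comparison. Of the 51 higher genes tested against zygotes, 3 were called higher and 13 lower, with 19.9% of 5914 genes called higher and 19.6% lower. Of the 18 lower genes, 11 were called higher and 0 lower, with a median log2 of 0.81 against -0.01 over all tested genes. Among these 18, ENSCSAVG00000006744 averaged 238 ± 48.5 CPM in B4.1 and 341 ± 26.6 CPM in C8-animal, against 92.1, 113 and 130 CPM in the lowest, median and highest zygote. ENSCSAVG00000008526 averaged 205 ± 50.8 CPM in B4.1 and 332 ± 66.2 CPM in C8-animal, against 77.0, 105 and 120 CPM in those zygotes. Both exceeded every zygote in the mean of either class. The 8-cell embryos of this comparison are those of the B4.1 contrast, so the values are given side by side only.

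As whole profiles, B4.1 cells were not set far apart from the rest. Over 3343 genes on log2 CPM with a pseudocount of 10, Pearson's r between the B4.1 cells of an embryo was 0.91, 0.91 and 0.83 in embryos 1, 2 and 3. Between a B4.1 and a C8-animal cell its median was 0.87, 0.86 and 0.85, and between C8-animal cells 0.74, 0.85 and 0.85. These are correlations across genes within an embryo, whose cells share a library and differ in depth, and they carry no test.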

How the data were processed

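The deposited matrix holds counts for 12172 genes. It is described as UMI counts, but in all 24 cells of the 8-cell stage its total equalled the read number of the authors' cell table, so these columns were used as read counts, with 2.68 to 3.49 reads per UMI. CASAVA 1.8, Seurat and DESeq2 are listed in the submitters' processing notes. Aligner, build and annotation: not given in the sources used here. No column was left unmapped (0), and 2 of the 4 entries of the 8-cell stage repeat the barcodes of a library already listed and were counted with it.

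Counts were summed per embryo and class and tested in edgeR 4.0.16 (R 4.3.3) with TMM scaling, filterByExpr, a quasi-likelihood fit with the embryo as a block, and p-values adjusted by Benjamini and Hochberg over every tested gene. The pairing comes from the embryo itself, since both classes were taken from the same animal, and deviations of same-embryo sums correlated at 0.196, 0.157 and 0.304. The fits of the 4-, 16- and 32-cell stages were made alike, with all classes of a stage in 1 fit and cells labelled low quality left out. Whole embryos of 8 cells were set against zygotes with stages as the only term. Sums are given as TMM-scaled CPM and single cells as CPM of their own total. Alternatives used DESeq2 1.42.0 and limma 3.58.1. Single values were compared by exact sign-flip tests in Python 3.11.15 (scipy 1.17.1, pandas 2.3.3, numpy 2.4.6), with plots by matplotlib 3.10.9. The edgeR fit was tested on simulated counts. The edgeR p-values of the 8-cell contrast rest on a spread estimated over 3 embryos and shared among genes, and do not measure a gene's own spread. The fits of the 16- and 32-cell stages rest on 2 embryos each. Reads are not independent molecules, so limits on counts cover counting error only.

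Genes were named by a rule: called at an adjusted p under 0.05 with the same direction in 3 embryos, the 15 with the largest log2 fold change above and the 10 below, the marker, the 3 most abundant genes of the run and the genes nearest the threshold. The genes of the uneven pairs, those called in B5.2 over B5.1, the smallest contrast, the genes set beside zygotes, the 3 genes of the run that did not pass and ENSCSAVG00000008691 were named after their values were seen. Members and lists were chosen with earlier results of these data known.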

Additional observations from a re-analysis of the deposited data

How the results depend on the processing

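Under 16 alternatives, 6 of the 27 higher genes outside the run kept their call in all: ENSCSAVG00000003019, ENSCSAVG00000001907, ENSCSAVG00000010230, ENSCSAVG00000007478, ENSCSAVG00000004348 and ENSCSAVG00000000317. So did 19 of the 25 genes of the run, apart from the alternative that left the run out, and 0 of the 18 lower genes. ENSCSAVG00000007674 was lost only under a minimum of 100 counts per embryo, which removed it. Higher genes numbered 29 with a log2 threshold of 1, 34 without the replicate block (34 of the 52) and 25 without the run, and between 38 and 42 when each embryo was left out in turn. Lower genes numbered 0 with that threshold, 0 without the replicate block, 1 with DESeq2, between 5 and 14 with an embryo left out, 860 with limma-trend on cells scaled to the same total and 756 without scaling factors. Of the settings, 3 were added after the data had been seen: limma-trend with TMM (52 higher, 34 lower), robust dispersion (53 and 20) and edgeR without scaling factors. In the 4-cell comparison, leaving out an embryo gave between 8 and 13 genes higher in B and between 0 and 1 lower. With any count, the lower genes became 4 in the B5 comparison, 33 in B5.2 over B5.1 and 25 in the B6 comparison, since more genes were tested. Without the replicate block these comparisons kept their counts within 1.5 times. Thinned to 10000 counts, B4.1 cells had 308 fewer genes than C8-animal cells (difference -308) in place of -157. Over the named genes, 431 values kept their side of the threshold, 86 lost and 5 gained a call, and 0 changed sign. Leaving out an embryo was not run at the 16- and 32-cell stages, where 1 remaining embryo leaves no residual degrees of freedom. Where not stated, the cause of a change was not tested. The 3 embryos limit every p-value for a single measure to 0.25.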
